A study of Mus musculus with 6 samples.

Results

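The genes described here are Trp53, which encodes the transcription factor p53, and 9 genes that p53 induces or that hold it in check: Mdm2, Mdm4, Cdkn1a, Ccng1, Trp53inp1, Phlda3, Zmat3, Ei24 and Gadd45a. They were chosen by name, and all 10 were found among the 54532 genes of the count table. RNA-seq was performed on C57BL/6 mouse leukemia cells transformed by AML1-ETO9a (AE9a), a shortened form of the AML1-ETO fusion, 3 libraries from the central bone marrow (CBM) and 3 from the endosteal bone marrow (EBM). CBM cells were flushed from femurs and tibias, and EBM cells were then released from the same bones by warm collagenase, a digestion that no CBM library went through. All cells came from mice at the third passage of a leukemia started by retroviral AE9a in c-Kit+ progenitors, and the labels do not say whether libraries of a group come from separate mice, so the spread between libraries may be technical. The leukemia is a single retroviral model, the labels give no age of the mice, and the cells were kept in medium with serum before and after sorting. The study describes its purchased C57BL/6 mice as females several weeks old.

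p53 accumulates when DNA is damaged or growth signals are abnormal, and it then binds DNA and switches on genes that stop the cell cycle, repair DNA or lead to cell death. Mdm2, a ubiquitin ligase, marks p53 for destruction and is itself switched on by p53, which closes a feedback loop. Mdm4, a relative of Mdm2, covers the activation domain of p53. In normal blood stem cells p53 helps to keep the cells at rest. The transcripts of its targets are commonly read as a sign of its activity, whereas p53 itself is controlled mainly at the protein level, which was not measured by RNA-seq.

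Counts on genes totalled between 16436526 and 19462964 per library, and 3 counts, taken as the floor of detection, came to 0.154 to 0.183 CPM (counts of a gene divided by the library's normalised total, on the usual CPM scale). Values of a region are listed in the order of replicates 1, 2 and 3. The intervals and floors given here cover counting error or the spread of these libraries only. In a principal component analysis CBM replicate 2 and EBM replicate 3 lay at one end of the first component, with scores of 42.9 and 46.0, against a range of -38.5 to 5.81 in the other libraries. Of 6 progenitor markers, the stem cell factor receptor Kit was at between 196 and 239 CPM and Myb at between 268 and 352 CPM. Runx1t1 was at between 20.5 and 41.0 CPM. Cd34 (1.16 to 16.4 CPM) and Mpo (1.65 to 35.8 CPM) were uneven between libraries, and Flt3 was counted too low to be tested. No gene of the lists for osteoblasts and stroma (10 genes), macrophages (6 genes) or T cells (5 genes) was counted highly enough to be tested, and the osteoblast markers Sp7 and Alpl had no count in any library. Summed levels of the osteoblast and stroma list lay between 0.397 and 1.32 CPM in CBM and between 0.514 and 1.56 CPM in EBM. Neutrophil and erythroid genes were present and uneven between libraries. The 6 neutrophil genes summed to between 3.27 and 215 CPM, and the 6 erythroid genes to between 2037 and 5434 CPM.

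All 10 genes are protein-coding, and their positions in the table are identical to those in GENCODE M21 on the mouse build GRCm38 (mm10). Trp53 (ENSMUSG00000059552) lies on the plus strand of chromosome 11, from 69580359 to 69591873. Mdm2 (ENSMUSG00000020184) lies on the minus strand of chromosome 10, from 117688875 to 117710758, and Mdm4 (ENSMUSG00000054387) on the minus strand of chromosome 1, from 132959484 to 133030561. Cdkn1a (ENSMUSG00000023067) lies on the plus strand of chromosome 17, from 29090976 to 29100727. On minus strands lie Ccng1 (chr11:40748552-40755311), Zmat3 (chr3:32334792-32366014), Ei24 (chr9:36779159-36797393) and Gadd45a (chr6:67035096-67037457). On plus strands lie Trp53inp1 (chr4:11156431-11174379) and Phlda3 (chr1:135766119-135769136). Exons of Cdkn1a, Ei24 and Gadd45a share bases with a gene on the opposite strand, and the sources do not say if counts were made by strand. These neighbours had few reads, with at most 39 counts for the one at Cdkn1a, at most 4 for the one at Ei24 and 0 for the one at Gadd45a. A processed pseudogene, Trp53-ps, had between 99 and 201 counts, so a small share of Trp53 reads may be split between them.

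The DNA just before the start sites is shown for the genes at the centre of the loop and for Cdkn1a, the well counted target that varied most. Promoter windows from RefSeq on GRCm38.p6 were found for 8 of the 10 genes (not for Trp53inp1 and Zmat3), and the 250 bases before each start were searched for the consensus p53 decamer, a 10-base motif that reads the same on both strands and of which p53 binds a pair. The decamer was present in 6 of the 10 windows of these genes, and in 7.13% of the 32851 windows of all genes. A pair of decamers at most 13 bases apart was present in 1 window, at the upstream start of Cdkn1a, and in 0.064% of all windows. In the lines that follow capitals mark the decamers.
Cdkn1a, upstream start, chr17:29090729-29090978, plus strand: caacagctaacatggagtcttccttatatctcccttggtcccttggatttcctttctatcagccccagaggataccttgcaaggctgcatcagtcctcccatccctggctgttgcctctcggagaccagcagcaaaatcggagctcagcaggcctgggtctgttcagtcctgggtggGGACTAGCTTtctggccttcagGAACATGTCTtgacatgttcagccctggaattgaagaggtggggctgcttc
Mdm2, chr10:117710759-117711008, minus strand: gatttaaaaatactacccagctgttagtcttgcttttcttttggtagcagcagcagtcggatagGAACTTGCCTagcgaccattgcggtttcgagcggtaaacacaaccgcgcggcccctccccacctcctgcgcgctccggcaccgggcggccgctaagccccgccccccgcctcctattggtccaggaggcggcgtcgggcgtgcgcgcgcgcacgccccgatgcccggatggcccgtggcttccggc
Trp53, chr11:69580109-69580358, plus strand: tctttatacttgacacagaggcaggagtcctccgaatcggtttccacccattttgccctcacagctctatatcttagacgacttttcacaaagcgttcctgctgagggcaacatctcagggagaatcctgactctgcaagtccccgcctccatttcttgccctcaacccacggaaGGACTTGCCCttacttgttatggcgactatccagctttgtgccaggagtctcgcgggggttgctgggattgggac
In the Cdkn1a window the marked decamers begin 73 and 51 bases before the start, with 12 bases between them. Only exact matches to the consensus were marked. The 10 bases directly after the second decamer, tgacatgttc, depart from the consensus only at their first base and were not marked. The search therefore does not show which decamers form a pair that p53 binds. The other Cdkn1a start in RefSeq, which lies 2793 bases inside the gene, had no decamer in its window. Single decamers were also found before Ccng1, Ei24 and Gadd45a, and none in the windows of Phlda3 and of both Mdm4 starts. A match describes the letters and not binding, which was not measured. Bases beyond these windows, also those inside Mdm2, were not searched. The decamer marked before Mdm2 is therefore not shown to be the one through which p53 switches it on.

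The quasi-likelihood test of edgeR placed 0 of the 10 genes below an adjusted p of 0.05, and 0 of all 13352 tested genes (0%). Below an unadjusted p of 0.05 it placed 0 of the 10 genes, where the background over all tested genes was 7.91%. limma-voom gave the same counts for the 10 genes, and DESeq2 called 0 at an adjusted p under 0.05 and 1, Cdkn1a, at an unadjusted p under 0.05 (DESeq2 background 1.39% adjusted and 4.05% unadjusted, the latter over 24771 genes with no filter). The fitted log2 fold change was above 0 in EBM for 4 genes and below 0 for 6, where 49.6% of all genes were below 0. The libraries of the regions did not overlap for 1 of the 10 genes, Trp53 (background 15.1%), and for 0 were all EBM libraries below all CBM libraries (background 7.65%). The median was -0.07 over the 10 genes and 0.00 over all genes. The 95% intervals of all genes but Cdkn1a, Trp53inp1 and Gadd45a stayed within 1 log2 unit of 0.

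**Figure D1:**
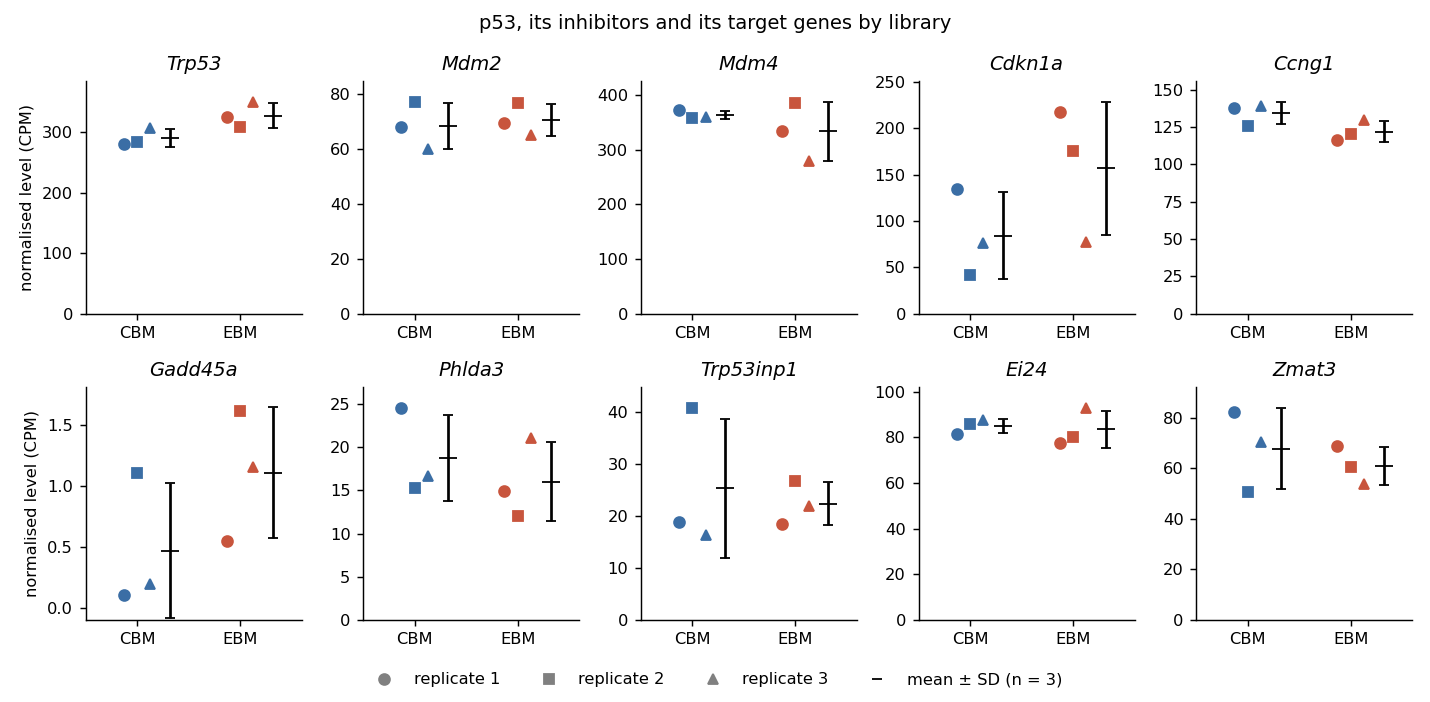
Normalised level in CPM (y axis, each gene on its own scale) of the 10 genes in the 3 CBM libraries (blue) and the 3 EBM libraries (red), with symbols for the replicate number and black bars for the mean ± SD (n = 3). The regions overlap for every gene but Trp53, whose lowest EBM library (308 CPM) lies just above its highest CBM library (307 CPM), and the points of Cdkn1a spread from 41.7 to 217 CPM.

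Trp53 was among the more abundant transcripts of these cells and slightly higher in EBM, a difference that did not pass the test. It was counted 4933, 5379 and 6190 times in the CBM libraries and 5877, 5531 and 5443 times in the EBM libraries. After normalization by the TMM method this was 281, 283 and 307 CPM in CBM and 324, 308 and 350 CPM in EBM. No EBM library was below a CBM library, but EBM replicate 2 exceeded CBM replicate 3 by less than the spread within either region. The CBM mean was 290 ± 14.6 CPM and the EBM mean 327 ± 21.1 CPM (SD, n = 3 each). On the log2 scale the fitted difference of EBM over CBM was 0.17, with a standard error (SE) of 0.09 (edgeR quasi-likelihood unadjusted p = 0.108, adjusted p = 0.721), and the exact two-sided permutation p was 0.1, the smallest that 3 against 3 libraries allow. All EBM libraries lay above all CBM libraries for 7.47% of the genes tested. The other members of the family, Trp63 and Trp73, had at most 4 counts in any library.

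Mdm2, the ubiquitin ligase of the loop, was at nearly the same level in both regions. Its normalised levels were 68.1, 77.1 and 60.1 CPM in the CBM libraries and 69.6, 76.8 and 65.2 CPM in the EBM libraries. The regions overlapped fully, and the libraries numbered 2 were the highest of each. The log2 fold change was 0.04 with a 95% interval from -0.25 to 0.33 (edgeR adjusted p = 0.983), so a difference of more than 1.26-fold upwards or below 0.842-fold lay outside the interval. The sign of this small difference turned to -0.02 when library totals alone were used for scaling.

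Mdm4 was counted more often than Trp53 in 5 of the 6 libraries, over a much longer gene length. Its levels in CBM were close together, at 372, 358 and 360 CPM, whereas those in EBM were 335, 386 and 279 CPM. EBM replicate 2 was the highest and EBM replicate 3 the lowest of all 6 libraries, so the EBM spread enclosed the CBM values. In edgeR's fit the log2 fold change was -0.12, SE 0.13 (edgeR adjusted p = 0.915), and it was -0.018 without EBM replicate 3 and -0.25 without EBM replicate 2. Per length and per library, the ratio of Mdm2 to Trp53 was 0.188 ± 0.031 in CBM and 0.172 ± 0.025 in EBM (SD, n = 3 each, exact permutation p = 0.6). The ratio of Mdm4 to Trp53 was 0.342 ± 0.021 in CBM and 0.281 ± 0.062 in EBM (SD, n = 3 each, exact permutation p = 0.2). Thus both inhibitors were less abundant than Trp53 per deposited gene length in every library.

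**Figure D2:**
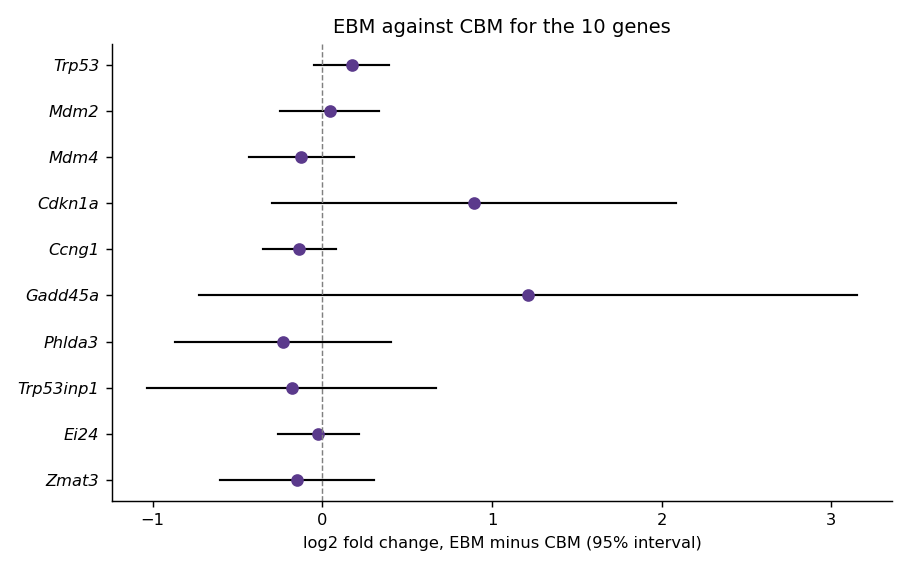
Fitted log2 fold change of EBM over CBM (x axis) for each of the 10 genes (y axis), with points for the estimate of edgeR's quasi-likelihood fit and lines for the 95% interval. All 10 intervals include 0, and those of Cdkn1a (-0.29 to 2.09), Trp53inp1 (-1.03 to 0.67) and Gadd45a (-0.73 to 3.15) are the widest.

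Cdkn1a, which encodes the cyclin-dependent kinase inhibitor p21 and holds cells before DNA replication, varied most of the well counted genes, and did so within each region. It was counted 2362, 792 and 1543 times in the CBM libraries and 3933, 3146 and 1209 times in the EBM libraries. The normalised levels were 134, 41.7 and 76.6 CPM in CBM and 217, 175 and 77.7 CPM in EBM. EBM replicates 1 and 2 and CBM replicate 1 were high, the other 3 libraries were low, and EBM replicate 3 was level with CBM replicate 3. The CBM mean was 84.2 ± 46.8 CPM, against an EBM mean of 157 ± 71.5 CPM (SD, n = 3 each). The log2 fold change of 0.90 had a standard error of 0.50 (edgeR adjusted p = 0.725, exact permutation p = 0.2). Leaving out CBM replicate 1 raised it to 1.41, leaving out CBM replicate 2 lowered it to 0.57, and leaving out EBM replicate 1 lowered it to 0.59. The highest library exceeded the lowest 5.21-fold, and 97.8% of the genes tested varied as much or less, by the SD of log2(CPM + 1) over the 6 libraries.

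The libraries with high Cdkn1a were also those with the highest mean over a list of genes known to respond to tissue dissociation, although not every gene of the list followed this order. The mean deviation of 14 such genes, among them Fos, Jun and Hspa1a, was 0.35, -0.29 and -0.95 on the log2 scale in the CBM libraries and 0.44, 0.32 and 0.12 in the EBM libraries. The 3 libraries with the highest values were the 3 with the highest Cdkn1a, and the lowest of all, CBM replicate 3, was not the lowest in Cdkn1a. The 3 with the highest Cdkn1a were also those with negative scores on the first principal component. These scores were -38.5 in CBM replicate 1, -36.4 in EBM replicate 1 and -19.8 in EBM replicate 2. The other libraries had scores of 5.81 to 46.0. Among other genes, 482 had an r above 0.9 with Cdkn1a. A division of the libraries like that of Cdkn1a is thus not particular to the dissociation list. Of the 14, 3 had higher and 1 had lower levels in EBM with an unadjusted edgeR p below 0.05 (backgrounds 4.01% and 3.9%). The higher genes were the heat shock genes Hspa1a and Hspa1b and the NF-kB inhibitor Nfkbia, and the lower was the phosphatase Dusp1. Dusp1 was at 1329, 764 and 595 CPM in the CBM libraries and at 382, 447 and 399.8 CPM in the EBM libraries, so it was low in both EBM libraries with high Cdkn1a. Fos, at 417, 102 and 52.3 CPM in the CBM libraries and at 101, 81.1 and 47.4 CPM in the EBM libraries, stood out in CBM replicate 1. Junb and Ier2 were highest in EBM replicate 3, where Cdkn1a was low. The part of dissociation in the Cdkn1a levels was not tested, and digestion and region cannot be told apart in this design.

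**Figure D3:**
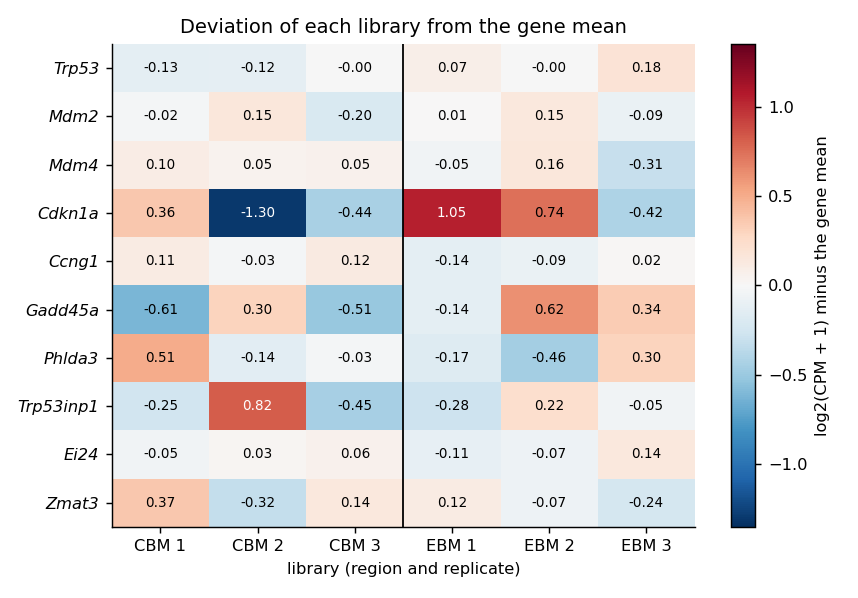
Deviation of each library (columns, 3 CBM and 3 EBM) from the mean of each gene (rows), in units of log2(CPM + 1), with red for above and blue for below the mean. Cdkn1a runs from -1.30 in CBM replicate 2 to 1.05 in EBM replicate 1, while among Trp53, Mdm2, Ccng1 and Ei24 the widest deviation is -0.20, of Mdm2 in CBM replicate 3.

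Ccng1, whose product cyclin G1 brings a phosphatase to Mdm2, was the next most abundant of the 10 genes per length after Trp53 in CBM and among the steadiest. Its levels were 138, 126 and 139 CPM in the CBM libraries and 116, 120 and 130 CPM in the EBM libraries. EBM replicate 3 lay above CBM replicate 2, and the other EBM libraries lay below all CBM libraries. The fitted log2 ratio of EBM to CBM was -0.14, SE 0.09 (edgeR unadjusted p = 0.174, adjusted p = 0.788). Only 11.6% of the genes tested varied as little as this one or less between libraries.

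Gadd45a, a stress protein that acts in growth arrest, was near the limit of detection. It had 2, 21 and 4 counts in the CBM libraries and 10, 29 and 18 counts in the EBM libraries, which is 0.11, 1.11 and 0.20 CPM against 0.55, 1.61 and 1.16 CPM. CBM replicate 1 was below the floor of 3 counts and CBM replicate 3 just above it, while CBM replicate 2 was within the EBM range. The log2 fold change of 1.21 had a standard error of 0.82 (edgeR adjusted p = 0.796) and depends strongly on CBM replicate 2, since it was 2.75 without this library (edgeR unadjusted p = 0.00705, adjusted p = 0.434). It was 0.77 without CBM replicate 1.

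Phlda3, which encodes a small protein that competes with Akt for membrane lipids, was at 24.5, 15.3 and 16.6 CPM in the CBM libraries and at 14.96, 12.1 and 21.1 CPM in the EBM libraries. EBM replicates 1 and 2 lay below all CBM libraries, EBM replicate 3 lay inside the CBM range, and CBM replicate 1 was the highest of all. On the log2 scale the fitted difference was -0.23, SE 0.27 (edgeR adjusted p = 0.926), and without CBM replicate 1 it was 0.01.

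Trp53inp1, a stress protein that takes part in cell death and autophagy, was set apart by a single library. Its levels were 18.9, 40.7 and 16.3 CPM in the CBM libraries and 18.5, 26.7 and 21.9 CPM in the EBM libraries. CBM replicate 2 was above all others, and the EBM libraries lay between it and CBM replicate 3. In edgeR's fit the log2 fold change was -0.18, SE 0.36 (edgeR adjusted p = 0.977), and without CBM replicate 2 it turned to 0.34 (edgeR unadjusted p = 0.128).

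CBM replicate 2 and EBM replicate 2, the highest libraries for Trp53inp1, also had the most neutrophil transcripts. The 6 neutrophil genes (S100a8, S100a9, Ltf, Camp, Ngp and Ly6g) summed to 7.68, 215 and 3.27 CPM in the CBM libraries and to 48.5, 154 and 33.3 CPM in the EBM libraries. Gadd45a was also lowest in CBM replicates 1 and 3, where these genes were lowest. The order did not hold throughout. EBM replicate 3 had more Gadd45a (1.16 CPM) than CBM replicate 2 (1.11 CPM), and more Trp53inp1 (21.9 CPM) than EBM replicate 1 (18.5 CPM). Mdm2 was likewise highest in CBM replicate 2 and EBM replicate 2 (77.1 and 76.8 CPM). The 6 erythroid genes summed to 2037, 5434 and 2382 CPM in the CBM libraries and to 2467, 3422 and 3766 CPM in the EBM libraries. They were thus also highest in CBM replicate 2, and lowest in CBM replicates 1 and 3, as Gadd45a was. EBM replicate 3 had more of them than EBM replicate 2, but less Trp53inp1, Gadd45a and Mdm2. In bulk libraries fewer cells of a type and less RNA per cell cannot be told apart. The part of neutrophil or erythroid cells in the levels of Trp53inp1, Gadd45a and Mdm2 was not tested.

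**Figure D4:**
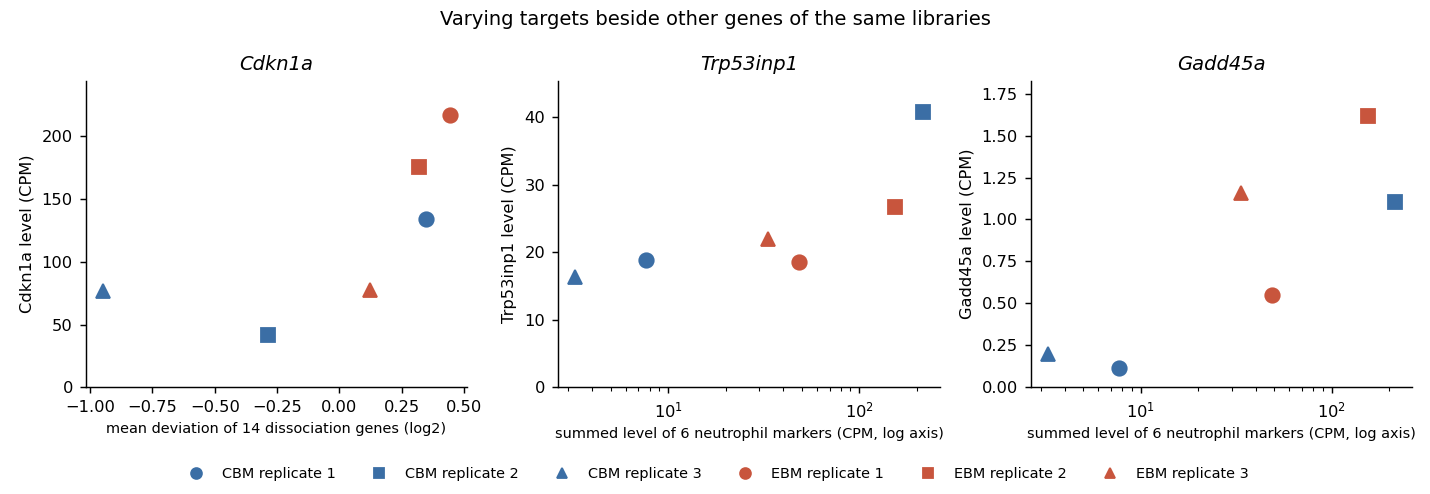
Level in CPM (y axis) of Cdkn1a against the mean log2 deviation of 14 dissociation genes, and of Trp53inp1 and Gadd45a against the summed CPM of 6 neutrophil markers (log axis), 1 point per library, blue for CBM and red for EBM. The 3 libraries above 100 CPM of Cdkn1a have the highest dissociation values (0.32 to 0.44), and Trp53inp1 is highest at the largest neutrophil sum (215 CPM). The 3 libraries above 100 CPM of Cdkn1a are also those with negative scores on the first principal component.

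Ei24, a membrane protein of the endoplasmic reticulum that takes part in autophagy, was the steadiest of the 10 genes. It was at 81.4, 85.7 and 87.6 CPM in the CBM libraries and at 77.6, 80.2 and 92.7 CPM in the EBM libraries, so the EBM libraries held both the lowest and the highest value. The log2 fold change was -0.02 with a 95% interval from -0.26 to 0.21 (edgeR adjusted p = 0.989).

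Zmat3, a zinc finger protein that binds RNA, was at 82.3, 50.7 and 70.3 CPM in the CBM libraries and at 68.9, 60.4 and 53.8 CPM in the EBM libraries. The EBM values lay inside the CBM range. The fitted log2 ratio of EBM to CBM was -0.15, SE 0.19 (edgeR adjusted p = 0.939), and it was 0.01 without CBM replicate 1.

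Ordered by level per kilobase of the deposited gene length, Trp53 came first, with 71.8 ± 3.61 CPM per kb in CBM and 80.9 ± 5.21 in EBM (SD, n = 3 each). The sources used here do not say how that length was defined, and the order rests on it. Ccng1 (38.2 ± 2.13 and 34.8 ± 1.98 CPM per kb), Cdkn1a (23.7 ± 13.2 and 44.1 ± 20.1) and Mdm4 (24.5 ± 0.500 and 22.5 ± 3.62) followed. The spread of Cdkn1a reached over that of both Ccng1 and Mdm4 in 1 or both regions, so their order is not fixed. Ei24 (17.4 ± 0.657 and 17.2 ± 1.66), Mdm2 (13.5 ± 1.67 and 13.9 ± 1.15) and Phlda3 (12.1 ± 3.21 and 10.3 ± 2.95) came next, and Mdm2 and Phlda3 overlapped within their spread. Zmat3 (5.93 ± 1.40 and 5.34 ± 0.663), Trp53inp1 (3.91 ± 2.07 and 3.45 ± 0.634) and Gadd45a (0.268 ± 0.312 and 0.628 ± 0.302) were the lowest, and Zmat3 and Trp53inp1 overlapped in CBM.

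The 10 genes did not rise and fall as a block across the libraries. Of their 45 pairs, 20 had a Pearson r above 0 for log2 CPM over the 6 libraries, with a median of -0.17. The highest r, 0.81, was between Mdm2 and Trp53inp1, and the lowest, -0.86, between Zmat3 and Gadd45a. Trp53 and Mdm4 had an r of -0.80. These values describe 6 libraries that share depth and composition effects, and carry no test. Outside the 10 genes, those with the profile most like Trp53 were Eif4a3, Atp6v1g1 and Ctnnbl1 (r of 0.99 each), and 233 of the 13342 other genes had an r above 0.9. For Mdm2 they were Washc2, Mgst2 and Dcaf6 (r of 0.99, 0.99 and 0.98), with 75 genes above 0.9. For Cdkn1a they were Ywhaz, Srgn and Trbv12-2 (r of 0.99 each), with 482 genes above 0.9.

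A wider list of 48 p53 targets, written from general knowledge, showed the same lack of a shared direction. Of these, 38 were counted highly enough to be tested, 20 were above and 18 below 0 in EBM, and the median log2 fold change was 0.02. None passed an adjusted p of 0.05 in edgeR's test or limma-voom, and DESeq2 called 2, Sesn2 and Ddit4 (background 1.39%, 175 of 12619 genes). Below an unadjusted p of 0.05 by edgeR, 2 were higher in EBM (background 4.01%) and 1 was lower (background 3.9%). All EBM libraries lay above all CBM libraries for 3 of the 38 (background 7.47%), and below for 2 (background 7.65%). The genes that missed the filter included Fas, Perp, Kitl and Gdf15, which had at most 6 counts in any library.

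The higher pair, Sesn2 and Ddit4, both encode stress-induced brakes on mTORC1. Sesn2 (sestrin 2) was at 15.4, 16.8 and 14.4 CPM in the CBM libraries and at 23.4, 23.8 and 22.9 CPM in the EBM libraries. The regions were clearly apart, with the lowest EBM library well above the highest CBM library. On the log2 scale the fitted difference was 0.59, SE 0.12 (edgeR unadjusted p = 0.00165, adjusted p = 0.226). DESeq2 gave an adjusted p of 0.0118, and over all 16 alternatives the adjusted p lay between 0.0118 and 0.887, with log2 fold changes from 0.52 to 0.66. Ddit4 was at 43.0, 32.5 and 36.1 CPM in the CBM libraries and at 57.4, 57.1 and 51.6 CPM in the EBM libraries, again without overlap. Its estimate was 0.57 (adjusted p = 0.304 by edgeR, 0.0367 by DESeq2). Their relative Sesn1, which p53 also induces, had a log2 fold change of -0.03 (edgeR unadjusted p = 0.875) and overlapped between regions. Both Sesn2 and Ddit4 are also induced through factors other than p53.

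Among 14 targets in cell death, 9 were tested, with 6 above and 3 below 0 in EBM and a median log2 fold change of 0.03. Pidd1, which encodes the core of a caspase-activating complex, was at 53.9, 60.2 and 57.6 CPM in the CBM libraries and at 46.3, 48.5 and 43.2 CPM in the EBM libraries, with no overlap. Its log2 fold change was -0.31, SE 0.10 (edgeR unadjusted p = 0.0150, adjusted p = 0.479). Bbc3, the BH3-only death protein Puma, had 0.57 (edgeR unadjusted p = 0.109) with overlapping libraries, and Apaf1, the scaffold of the apoptosome, had -0.18 (edgeR unadjusted p = 0.101), without overlap. Bax, a pore-forming death protein, was at 94.5 CPM in CBM and 96.2 CPM in EBM on average, and its log2 fold change was 0.03 (edgeR unadjusted p = 0.833).

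Of 10 targets in cell cycle control and feedback, 9 were tested, with a median log2 fold change of 0.08. Of these, 0 fell below an unadjusted p of 0.05 by edgeR (background 7.91%). The smallest p belonged to Plk3, a polo-like kinase (log2 fold change 0.50, unadjusted p = 0.0899), Btg2, an antiproliferative factor (0.42, unadjusted p = 0.145), and Ppm1d, a phosphatase that turns p53 signalling off (0.17, unadjusted p = 0.517). In DNA repair and nucleotide supply all 8 targets were tested and all 8 were below 0 (background 49.6%). None had an unadjusted p under 0.05 (background 7.91%), and the median was -0.12. Among them were Ddb2 (damage recognition, log2 fold change -0.13, edgeR unadjusted p = 0.313) and Polh (a translesion polymerase, -0.15, unadjusted p = 0.331). The number of these 8 genes below 0 was between 6 and 8 over the alternatives. In metabolism and stress 12 of 16 targets were tested, and after Sesn2 and Ddit4 the smallest p was that of Gls2, a mitochondrial glutaminase (log2 fold change 0.36, unadjusted p = 0.245).

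Upstream of p53, all 20 genes of a list of kinases, cofactors and Mdm2-binding proteins were tested, with 11 above and 9 below 0 and a median log2 fold change of 0.03. Kat5, an acetyltransferase that modifies p53, was at 54.6, 55.4 and 55.1 CPM in the CBM libraries and at 66.2, 68.4 and 66.7 CPM in the EBM libraries. The regions did not overlap, and the log2 fold change was 0.29, SE 0.08 (edgeR unadjusted p = 0.00953, adjusted p = 0.415). It was the 1 gene of the list with an unadjusted p under 0.05 (5% of the 20, against a background of 7.91%). All EBM libraries lay above all CBM libraries for 3 of the 20 genes (background 7.47%), and below for 1 (background 7.65%). Rpl23, a ribosomal protein that can bind Mdm2, had a log2 fold change of 0.22 (edgeR unadjusted p = 0.0659), and Prkdc, the catalytic subunit of a DNA damage kinase, had -0.23 (unadjusted p = 0.0685). Of 14 cell cycle genes that p53 lowers through p21 and the DREAM repressor, all were tested, 5 were above and 9 below 0, and the median was -0.06. E2f1 had the smallest p of these (log2 fold change -0.24, edgeR unadjusted p = 0.0644), ahead of Rbl1 (-0.17, unadjusted p = 0.205) and Foxm1 (-0.14, unadjusted p = 0.260).

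**Figure D5:**
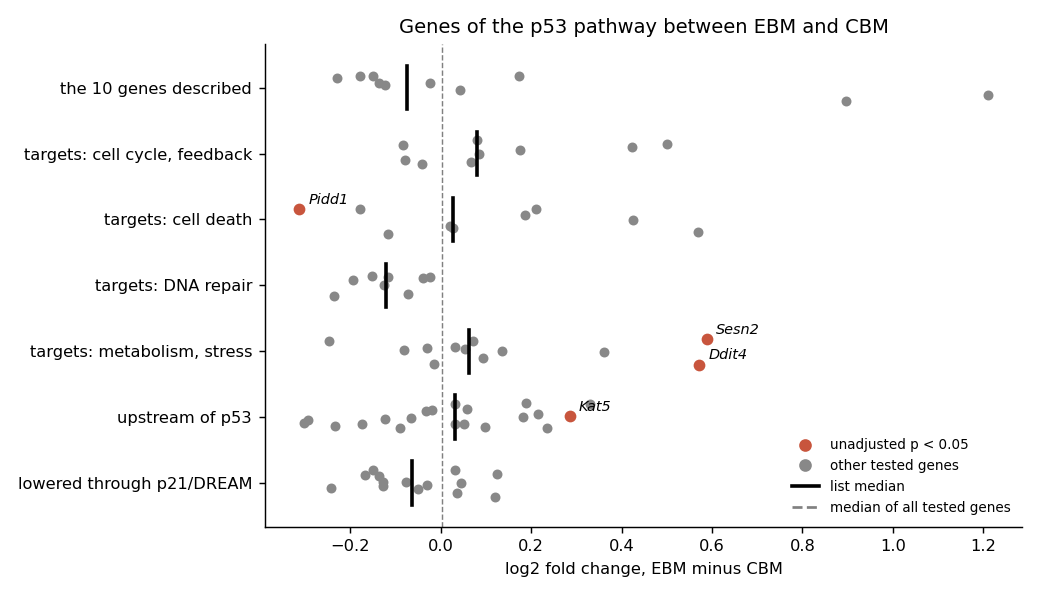
Log2 fold change of EBM over CBM (x axis) for the tested genes of each p53 list (y axis), 1 point per gene, red where edgeR's unadjusted p is under 0.05, with a black bar for the list median and a dashed line for the median of all tested genes. List medians lie between -0.12 and 0.08, and the 4 red genes are Sesn2, Ddit4, Kat5 and, below 0, Pidd1.

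Across the tested genes, presence of the p53 decamer before the start was not accompanied by a shift. The 628 genes with a decamer in a window, the 10 genes apart, had a median log2 fold change of 0.00, and 7.48% of them fell below an unadjusted p of 0.05 by edgeR. For the 8428 genes with windows but no decamer these values were 0.00 and 7.997%. Because p53 binds a pair and only 5 of the 628 genes had a pair, this comparison cannot show whether genes bound by p53 shifted.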

How the data were processed

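RNA was extracted from AE9a leukemia cells of 3 CBM and 3 EBM samples, and libraries were made by the authors with a directional kit after removal of rRNA and read from both ends. The submitters' processing notes name HISAT2 2.0.5 and mm10. The counting tool, annotation and strand setting are not given in the sources used here. The authors deposited raw counts per gene, without normalization, with a gene length that was used as given. Groups and replicate numbers were taken from the sample titles, and no other columns hold per-sample values.

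Counts were analysed in R 4.3.3. Genes were filtered with filterByExpr of edgeR 4.0.16, which left 13352, normalized by TMM (factors 0.948 to 1.04) and compared with the quasi-likelihood F-test of edgeR without a block, after the unpaired comparison in the study's general statistics, with Benjamini-Hochberg adjustment over all genes at 0.05. Standard errors are the absolute log2 fold change divided by the square root of F. Exact permutation tests enumerated the 20 relabellings of log2(CPM + 1). Correlations and principal components used log2 CPM with a prior count of 2. Exact matches to the decamer were searched for in the 250 bases before RefSeq starts. Alternatives were DESeq2 1.42.0, limma-voom (limma 3.58.1), edgeR's newer quasi-likelihood method, RLE factors, library totals alone, other filters (none, or 1 CPM in 3 libraries), a replicate block, thinning and leaving out libraries. Methods were also tried on simulated data, and the outcome is not given here. Within regions no libraries were the same within sampling noise (chi-square per degree of freedom of at least 13.1).

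The 10 genes and all lists were chosen with earlier results of these data known. Named in each list were the genes with an unadjusted p under 0.05 or else those with the smallest p, up to 3. A gene that this rule would name is not reported here. Bax, Sesn1, Fos, Junb, Ier2 and the untested genes were named after their values were seen. Likeness to Trp53, Mdm2 and Cdkn1a was the Pearson r of log2 CPM over the 6 libraries, with the 3 highest named.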

Additional observations from a re-analysis of the deposited data

How the results depend on the processing

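No adjusted p of the 10 genes fell under 0.05 in any of the 16 alternatives, while small differences changed sign. Over all genes the count at an adjusted p under 0.05, which was 0, became 175 with DESeq2 and 40 without a filter on low counts. Among the 10 genes the count at an unadjusted p under 0.05, which was 0, became 1 with DESeq2, 1 with library totals alone (Ccng1) and 1 with the replicate block (Gadd45a, log2 fold change 1.49, edgeR unadjusted p = 0.0442). Over all genes this count was 1056 of 13352 in the main fit and 1003 of 24771 (4.05%) with DESeq2. It was 1224 of 13352 with library totals alone and 1203 of 13352 with the block. The median log2 fold change of the 10 genes was -0.14 with library totals alone, a scaling that moved the median of all genes by -0.07. With each library left out in turn, the count over all genes at an adjusted p under 0.05 stayed at 0. That of the 10 genes at an unadjusted p under 0.05 lay between 0 and 1, and their median between -0.083 and 0.060. The count of other p53 targets at an unadjusted p under 0.05 lay between 3 and 5 (5 without CBM replicate 2). Between 672 and 1096 of all 13352 genes had an unadjusted p under 0.05 with a library left out (998 without CBM replicate 2). In these fits log2 fold changes ran from -0.047 to 0.14 for Mdm2, from -0.25 to -0.018 for Mdm4, from -0.42 to 0.34 for Trp53inp1, from -0.48 to 0.0072 for Phlda3, from -0.32 to 0.013 for Zmat3 and from -0.11 to 0.026 for Ei24, and with library totals alone Mdm2 was at -0.025. An alternative chosen after seeing the data left out CBM replicate 2 and EBM replicate 3, which lie apart on the first principal component. It called 13 genes over all, and 4 of the 10 genes (Cdkn1a, Ccng1, Phlda3 and Gadd45a) had an unadjusted p under 0.05, where 1300 of all 13352 genes did. Their median was then 0.041, Trp53inp1 was at 0.36, and 5 other p53 targets had an unadjusted p under 0.05. The cause of these changes was not tested. The replicate numbers were not shown to pair the libraries, since deviations from the group means correlated with r of 0.68, -0.20 and 0.20 for numbers 1, 2 and 3, and CBM replicate 2 correlated best with EBM replicate 3 (r of 0.51). With the block the calls at an adjusted p under 0.05 did not change for any of the 10 genes. Depth limits Gadd45a, whose count fell below the floor of 3 in CBM replicate 1, and the spread of 3 libraries a region limits the other genes.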

Other observations

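Other transcripts, picked after their values were seen, were high in the same 3 libraries as Cdkn1a (CBM replicate 1 and EBM replicates 1 and 2). Cdkn2a, which encodes the Mdm2 antagonist Arf and the kinase inhibitor p16, was at 24.2, 3.001 and 5.71 CPM in the CBM libraries and at 26.5, 11.7 and 3.02 CPM in the EBM libraries. The progenitor marker Cd34 was at 15.4, 1.16 and 4.86 CPM in CBM and at 16.4, 10.5 and 1.22 CPM in EBM. The cytokine gene Lif, another p53 target, was at 4.15, 0 and 0.50 CPM in CBM and at 1.93, 1.84 and 0.06 CPM in EBM. The pattern runs across both regions and follows the sign of the scores on the first principal component, and its cause was not tested.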
